A study of Homo sapiens with 4 samples.

Results

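Genes of Parkinson disease and of synuclein biology were followed in SH-SY5Y cells, a human neuroblastoma line in long use as a neuronal model, with and without exposure to a nitric oxide donor. The 8 genes were SNCB, PARK7, PINK1, UCHL1, LRRK2, VPS35, ATP13A2 and FBXO7. They were taken by name from tables of 58243 genes, and each name matched 1 row. The control group held 2 libraries of untreated cells. The other group held 2 libraries of cells given sodium nitroprusside (SNP), which releases nitric oxide, for 8 h, a state the labels call oxidized. The dose that was sequenced is not given, and the protocol text speaks of differentiation with retinoic acid and of replicate wells in 1 experiment. All 4 libraries come from 1 cell line, and nothing places them in separate experiments, so p-values measure the spread between these libraries, which may be technical.

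Parkinson disease is marked by the loss of dopamine neurons and by deposits of synuclein protein. Its inherited forms point to a few linked processes: the disposal of damaged mitochondria by the kinase PINK1 and the ubiquitin ligase Parkin, the sorting of membrane proteins by the retromer and by the Rab GTPases that LRRK2 phosphorylates, the lysosome, where ATP13A2 exports polyamines, and the ubiquitin system, in which UCHL1 and FBXO7 act. PARK7 encodes DJ-1, a protein with a redox-sensitive cysteine. SNCB encodes beta-synuclein, a relative of the protein that aggregates.

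The sequences below show the 3 genes that passed the test. Upstream windows of 200 bases, from 250 to 51 bases before the RefSeq start of each gene (GRCh38.p14), are written 5′ to 3′ on the strand of the gene. PARK7 is shown at chr1:7961461-7961660 (plus strand), LRRK2 at chr12:40224747-40224946 (plus strand) and ATP13A2 at chr1:17011979-17012178 (minus strand). The PARK7 and LRRK2 windows lie inside the gene spans of GENCODE 29, which start further upstream, at 7954291 and 40196744. Capitals mark matches on either strand to 6 motifs: the antioxidant response element core TGACNNNGC, the cyclic AMP response element TGACGTCA, the E-box CACGTG, the GC box GGGCGG, the CCAAT box CCAAT and the TATA box TATAAA.
PARK7: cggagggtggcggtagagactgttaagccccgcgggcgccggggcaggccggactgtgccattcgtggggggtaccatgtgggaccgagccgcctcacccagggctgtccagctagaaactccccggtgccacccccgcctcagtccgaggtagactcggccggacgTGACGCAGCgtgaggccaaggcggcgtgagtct
LRRK2: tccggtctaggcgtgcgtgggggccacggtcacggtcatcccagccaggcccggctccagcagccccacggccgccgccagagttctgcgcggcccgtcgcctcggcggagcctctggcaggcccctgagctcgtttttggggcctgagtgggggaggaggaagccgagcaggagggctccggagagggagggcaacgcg
ATP13A2: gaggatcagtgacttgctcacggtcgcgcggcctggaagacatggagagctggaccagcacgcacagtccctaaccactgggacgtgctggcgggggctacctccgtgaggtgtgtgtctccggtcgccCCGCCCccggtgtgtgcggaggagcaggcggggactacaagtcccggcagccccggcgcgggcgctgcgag
The PARK7 window held 1 antioxidant response element core, from 83 to 75 bases before the start. The windows of SNCB, VPS35 and FBXO7, of which none passed the test as higher, held this core too. The ATP13A2 window held 1 GC box on the opposite strand, and the LRRK2 window held no match to these letters. Of 35097 RefSeq windows of this length, 8.27% held the antioxidant core and 35.0% a GC box. The G and C content was 70.0% in the PARK7 and ATP13A2 windows and 73.5% in the LRRK2 window, against a median of 57.5% over all windows. The windows of UCHL1, VPS35, SNCB and FBXO7 lay above that median too, between 63.5% and 72.5%. A match describes the letters of the window and was not tested as a site.

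The balance of guanine and cytosine also differed between PARK7 and ATP13A2. The stretches of 90 coding bases within 1 exon that have the most guanine over cytosine in PARK7 and the least in ATP13A2 are printed from GENCODE 29, with guanine in capitals. The PARK7 stretch lies at chr1:7984942-7985031 (plus strand, exon 7) and holds 33 guanines and 19 cytosines. The ATP13A2 stretch lies at chr1:16993685-16993774 (minus strand, exon 16) and holds 23 guanines and 43 cytosines. They were chosen as opposite extremes of the 2 genes, so the contrast between these stretches was set by that choice. Over the whole coding sequence of 1 transcript per gene, guanine minus cytosine was 8.99 percentage points in PARK7 and -2.03 in ATP13A2. FBXO7, which did not pass the test, had -2.11 percentage points on this measure.
PARK7: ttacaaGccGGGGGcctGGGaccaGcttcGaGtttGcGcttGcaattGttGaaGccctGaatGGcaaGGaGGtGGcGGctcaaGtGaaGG
ATP13A2: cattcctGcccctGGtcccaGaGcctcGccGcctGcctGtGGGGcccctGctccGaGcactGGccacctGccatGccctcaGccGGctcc
Over all annotated transcripts PARK7 had 27.8% guanine and 21.1% cytosine, and ATP13A2 had 30.4% guanine and 32.9% cytosine. The difference, guanine minus cytosine, put PARK7 at percentile 98.2 and ATP13A2 at percentile 11.9 of the genes tested.

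The 4 libraries held between 5613144 and 8056550 counted reads, and 14759 genes passed the expression filter. The defining genes of a sympathetic neuroblastoma were present: 13 of the 14 listed, which include HAND2, DBH and CHGA, passed the filter, while TH was listed at 0 in every library, and whether this 0 is absence or a failed count was not settled. Of these 13, 4 rose and 6 fell in SNP libraries, 76.9% together, against 26.2% of all genes tested. The list's summed level lay between 3684 and 3718 CPM (counts scaled to library size) in control and between 3071 and 3079 CPM in SNP libraries, and its part in the results was not tested. Markers of dopamine neurons were at or near 0: SLC6A3 had 1 read in all, EN1, FOXA2 and PITX3 had none, and their list summed to at most 1.38 CPM in a library. Glial markers summed to at most 0.925 CPM, with AQP4 and MBP at 0. The mesenchymal list summed to between 200.3 and 238 CPM, and 1 of its 4 tested genes, COL3A1, changed, upward. Most of this sum was TWIST1, at between 136.8 and 156.4 CPM. COL1A1, PRRX1 and YAP1 had at most 1.42 CPM in a library and were not tested. Of the 5 retinoic acid response genes, 3 could be tested, with log2 fold changes between -0.17 and 0.14, and CYP26A1 was at 0. In bulk RNA fewer cells of a type and less RNA per cell cannot be told apart.

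Among the 8 genes, ATP13A2 was lower, and PARK7 and LRRK2 were higher, in SNP-treated cells. PINK1 lay higher in both SNP libraries, by about as much as PARK7, but did not pass the test. UCHL1, VPS35 and FBXO7 had small differences, and SNCB was barely counted. Of the 7 genes that could be tested, 3 passed an adjusted p of 0.05 in the quasi-likelihood test of edgeR (Benjamini-Hochberg over all genes), 2 of them higher and 1 lower. The background was high: 26.2% of all genes tested passed, 13.6% as higher and 12.6% as lower. The 7 genes had a median log2 fold change of 0.047, against -0.0042 over all genes tested. In 5 of the 7 the groups did not overlap on the CPM scale, which held for 64.0% of all genes tested. SNP values were the higher ones in 3 of these (31.7% of all genes) and the lower ones in 2 (32.3% of all genes).

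**Figure D1:**
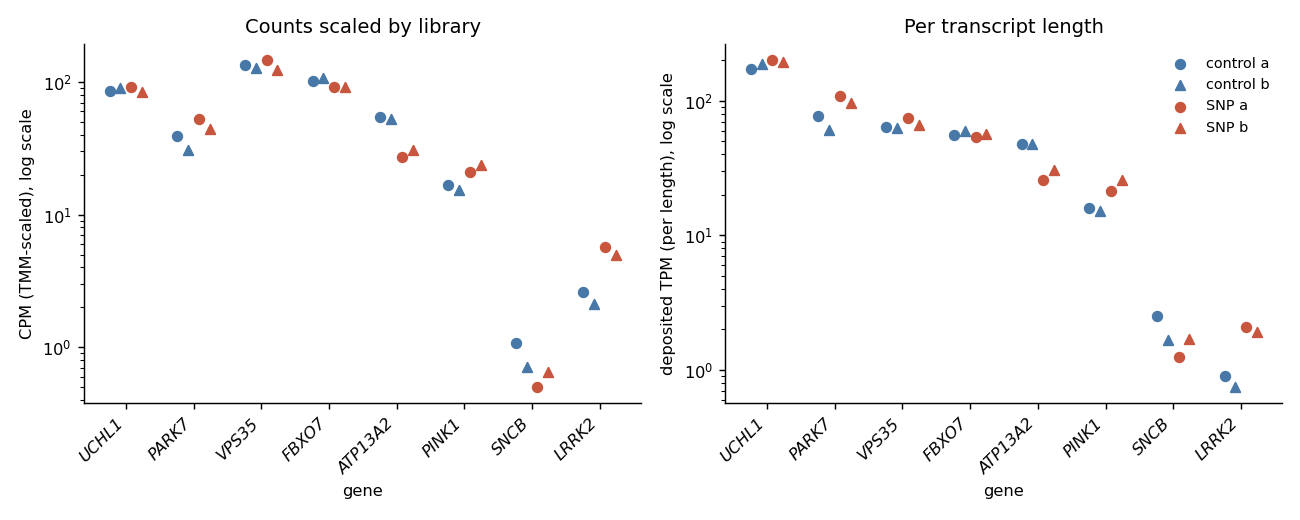
Level of the 8 genes in each library, on log axes: CPM on the left and the deposited TPM, which is per transcript length, on the right; blue is control, red is SNP, circles are replicate a and triangles replicate b. ATP13A2 is lower, and PARK7, PINK1 and LRRK2 are higher, in both SNP libraries, while SNCB and LRRK2 lie far below the other genes.

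ATP13A2, the lysosomal polyamine transporter, had the firmest difference of the group. The gene (ENSG00000159363) lies on chromosome 1 from 16985958 to 17011928 on the minus strand (GRCh38, GENCODE 29) and has 27 merged exons of 5253 bases. Control a and b held 351 and 296 of its reads, and SNP a and b held 216 and 239. On the CPM scale its levels were 54.1 and 52.6 in control and 27.2 and 31.0 in SNP libraries, so the SNP libraries were the lower ones although they were sequenced deeper. The mean fell from 53.3 ± 1.12 to 29.1 ± 2.69 CPM (SD, n = 2 each), a 1.83-fold lower level. The log2 fold change was -0.88 (SE 0.140, 95% interval -1.17 to -0.58), and edgeR gave an adjusted p of 1.0e-04 (Benjamini-Hochberg). Ranked by log2 fold change among all genes, it stood at percentile 3.75. ATP13A2 shares 189 exonic bases with AL049569.1, an RNA on the other strand that had 2 reads in all 4 libraries together. The call held in all 15 alternatives that could test the gene, between -0.97 and -0.66 on the log2 scale, with adjusted p-values between 7.6e-06 and 0.0018.

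LRRK2, the kinase that acts on Rab GTPases, had the largest rise of the group and the fewest reads of the genes tested. The gene (ENSG00000188906) spans chromosome 12 from 40196744 to 40369285 on the plus strand, with 53 merged exons of 13491 bases that overlap no exon of another gene. It had 17 and 12 counts in control a and b, and 45 and 38 in SNP a and b. These are 2.62 and 2.13 CPM in control and 5.66 and 4.93 CPM in SNP libraries, and the groups did not overlap. The log2 fold change was 1.14 (SE 0.382, 95% interval 0.35 to 1.94), a 2.21-fold higher level, with an adjusted p of 0.0307 in edgeR's test (Benjamini-Hochberg). Between libraries of equal letter, which nothing in the labels ties together, the log2 ratio was 1.11 for a and 1.21 for b. The call was lost in 8 of 15 alternatives, among them each fit without 1 library, where the log2 fold change lay between 1.01 and 1.30 and the adjusted p of edgeR's test between 0.0702 and 0.185. With DESeq2's Wald test its log2 fold change was 1.16 and the Benjamini-Hochberg adjusted p 0.152.

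PARK7, which encodes DJ-1, was higher in SNP libraries, but not with offsets that include guanine minus cytosine. The gene (ENSG00000116288) lies on chromosome 1 from 7954291 to 7985505 on the plus strand, with 11 merged exons of 2397 bases and no exonic overlap. Its counts were 256 and 174 in control a and b, and 416 and 340 in SNP a and b. On the CPM scale the control libraries held 39.5 and 30.9 and the SNP libraries 52.4 and 44.1. Both SNP values were above both control values, and the a library was the higher one in each group. The mean was 35.2 ± 6.07 CPM in control, against 48.2 ± 5.86 CPM after SNP (SD, n = 2 each). The log2 fold change was 0.45 (SE 0.150, 95% interval 0.14 to 0.76), or 1.37-fold, with an adjusted p of 0.0304 in edgeR's test (Benjamini-Hochberg). With per-library offsets on gene length and GC content the value was 0.49 on the log2 scale (edgeR, adjusted p 0.0157). With guanine minus cytosine added to these offsets, the value was -0.0097 on the log2 scale (edgeR, adjusted p 0.970). Without SNP a the log2 fold change was 0.32, and without control b it was 0.29, with adjusted p-values of 0.170 and 0.360 from edgeR. DESeq2's Wald test gave 0.46 with a Benjamini-Hochberg adjusted p of 0.0999.

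PINK1, the mitochondrial kinase upstream of Parkin, had 108 and 87 counts in control a and b, and 166 and 184 in SNP a and b. The gene (ENSG00000158828) lies on chromosome 1 from 20633455 to 20651511 on the plus strand, with 6 merged exons of 4836 bases. Levels were 16.7 and 15.4 CPM in control and 20.9 and 23.9 CPM in SNP libraries, with no overlap between the groups. The log2 fold change was 0.48 (SE 0.183, 95% interval 0.10 to 0.86), and the adjusted p of edgeR's test (Benjamini-Hochberg) was 0.0593. The antisense gene PINK1-AS (chromosome 1, 20642657 to 20652193, minus strand) shares 1907 exonic bases with PINK1, 39.4% of the exonic length of PINK1, and was counted more often than PINK1.

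PINK1-AS moved the opposite way. Control libraries held 312 and 304 of its reads and SNP libraries 256 and 269, which are 48.1 and 54.0 CPM against 32.2 and 34.9 CPM. This is a log2 fold change of -0.60 (SE 0.138), for which edgeR gave an adjusted p of 0.0027 (Benjamini-Hochberg). The use of strand in the counting is not stated, so reads of the shared stretch cannot be assigned to either gene with certainty. The sum of both genes was 64.8 and 69.4 CPM in control and 53.1 and 58.7 CPM in SNP libraries.

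UCHL1, FBXO7 and VPS35 were the best counted of the group, and none passed the test. UCHL1, a ubiquitin hydrolase that is abundant in neurons (ENSG00000154277; chromosome 4, 41256413 to 41268455, plus strand), was counted 551 and 507 times in control, against 728 and 653 times after SNP. This corresponds to 85.0 and 90.01 CPM against 91.6 and 84.7 CPM, and the groups overlapped on this scale. On the deposited TPM scale, which was not tested, they did not, at 173.5 and 187.3 against 200.6 and 194.0. The log2 fold change of UCHL1 was 0.012, with a 95% interval of -0.22 to 0.24. VPS35, the core subunit of the retromer (ENSG00000069329; chromosome 16, 46656132 to 46689518, minus strand), was counted 866 and 722 times in control, against 1160 and 959 times after SNP. At 133.6 and 128 CPM in control against 146.0 and 124 CPM in SNP libraries, its groups overlapped on that scale too. Its deposited TPM values did not overlap, at 63.9 and 62.6 in control against 74.9 and 66.8 after SNP. The log2 fold change of VPS35 was 0.047 (95% interval -0.18 to 0.27). Changes of 1.37-fold, the size seen for PARK7, lie outside both intervals.

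FBXO7, an F-box protein of a ubiquitin ligase complex that also takes part in mitochondrial disposal (ENSG00000100225; chromosome 22, 32474676 to 32498829, plus strand), was lower in both SNP libraries by a small margin. Its counts were 664 and 609 in control, against 725 and 710 after SNP, or 102 and 108 CPM against 91.3 and 92.1 CPM. The groups were apart on the CPM scale but overlapped in deposited TPM, at 56.0 and 60.3 against 53.5 and 56.5. The log2 fold change was -0.20 (SE 0.108, 95% interval -0.42 to 0.026), and the adjusted p of edgeR's test (Benjamini-Hochberg) was 0.187. It passed with offsets on length and GC content, at -0.26 and an adjusted p of 0.0387 in edgeR's test. In that fit PARK7, PINK1, ATP13A2 and FBXO7 passed, 4 of the 7, as did 28.8% of all genes. SNCB (ENSG00000074317; chromosome 5, 176620084 to 176630556, minus strand) was counted 7 and 4 times in control, against 4 and 5 times after SNP. This is too few for the filter, so SNCB has no test in the main fit, and a difference was not detectable at this depth. In the fit without the filter, where 8 members were tested, SNCB was not called. Its sister gene SNCG was listed at 0 in every library, and SNCAIP, which encodes a synuclein-binding protein, had between 5 and 7 counts per library.

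**Figure D2:**
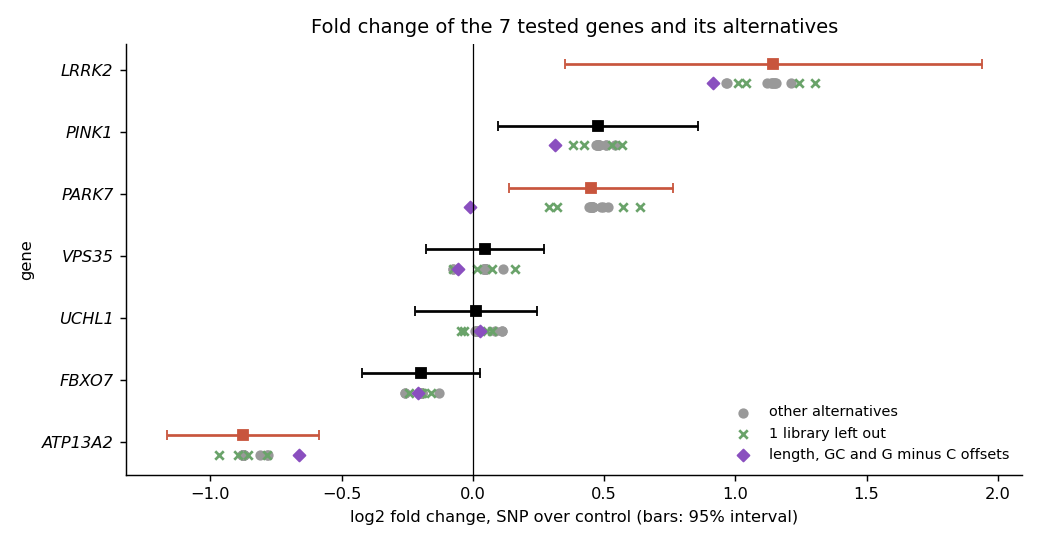
Log2 fold change of SNP over control for the 7 genes tested (squares with 95% intervals, red where the adjusted p of edgeR's test was under 0.05), with the values under each alternative below. ATP13A2 stays between -0.97 and -0.66 in all of them, and PARK7 moves from 0.45 to -0.0097 with the offsets that include guanine minus cytosine.

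Per transcript length, on the deposited TPM scale, UCHL1 was the most abundant of the 8 genes, at 180.4 ± 9.79 TPM in control and 197 ± 4.62 TPM in SNP libraries (SD, n = 2 each). In control libraries PARK7 followed at 69.0 ± 11.0 TPM, then VPS35 at 63.2 ± 0.978, FBXO7 at 58.1 ± 3.02, ATP13A2 at 47.8 ± 0.353 and PINK1 at 15.6 ± 0.621 TPM. PARK7 and VPS35 overlapped in control, with PARK7 at 76.7 and 61.2 TPM and VPS35 at 63.9 and 62.6 TPM. In SNP libraries PARK7 stood apart from VPS35, at 102.6 ± 9.14 against 70.9 ± 5.74 TPM, while ATP13A2 at 28.3 ± 3.53 TPM came close to PINK1 at 23.7 ± 2.98 TPM. SNCB and LRRK2 were at the bottom. LRRK2 had 0.829 ± 0.110 TPM in control, under SNCB at 2.09 ± 0.584, and 2.01 ± 0.133 TPM in SNP libraries, beside SNCB at 1.47 ± 0.309 TPM. The ratio of ATP13A2 to PARK7 within a library was 0.626 and 0.776 in control and 0.237 and 0.321 in SNP libraries.

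The changes of the tested members were set beside those of genes of like base composition. Across all genes with a composition, ordered by guanine minus cytosine and cut into 10 equal groups, the median log2 fold change ran from -0.43 in the lowest group to 0.39 in the highest. PARK7, with 6.67 percentage points more guanine than cytosine, lay in the highest group and changed by 0.45, near the 0.39 of that group. ATP13A2, at -2.47 percentage points, lay in the group whose median was -0.27, and changed by -0.88. LRRK2 and PINK1, at 2.38 and 2.60 percentage points, lay in a group with a median of 0.15, and changed by 1.14 and 0.48. UCHL1, VPS35 and FBXO7, between 0.98 and 1.87 percentage points, were in groups with medians between -0.051 and 0.089. They changed by 0.012, 0.047 and -0.20.

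With offsets for length, GC content and guanine minus cytosine, ATP13A2 alone of the 7 genes passed the test, at -0.66 with an adjusted p of 0.0018 in edgeR's test (Benjamini-Hochberg), where 18.7% of all genes passed. LRRK2 had 0.92 with an adjusted p of 0.0898 and PINK1 had 0.31 with 0.201 in edgeR's test with these offsets. With DESeq2's Wald test ATP13A2 was again the only one, where 16.4% of all genes passed. A relation with base composition was measured across genes, which are not independent replicates, and its part in the change of any single gene was not tested.

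**Figure D3:**
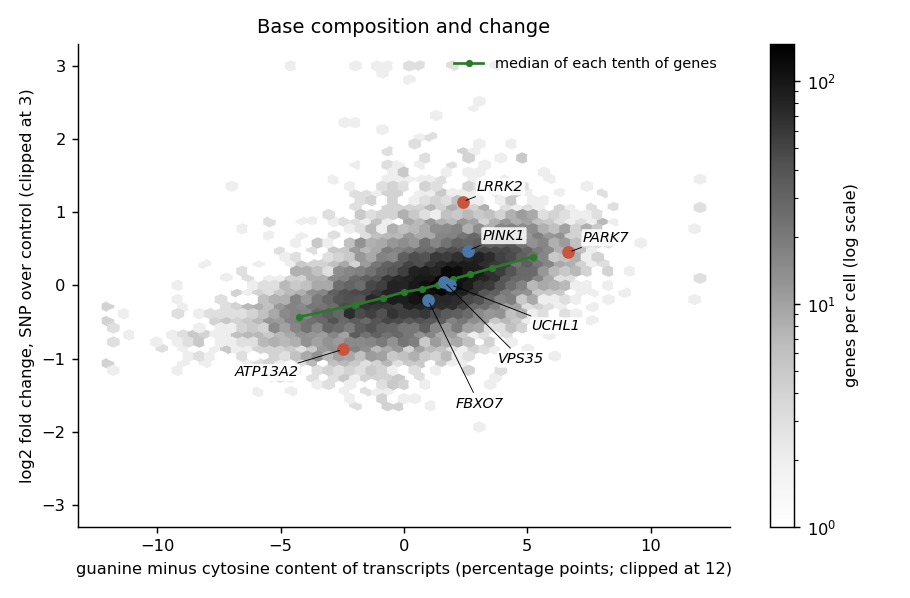
Each gene's log2 fold change of SNP over control (y axis) against guanine minus cytosine content of its transcripts in percentage points (x axis), with values beyond the axis limits drawn at the limit; grey cells count genes on a log scale, and the green line joins the medians of 10 equal groups. PARK7 lies at 6.67 and near the line, whereas ATP13A2 lies at -2.47 and LRRK2 at 2.38, below and above it.

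The genes around the 8 members were described through 8 lists of 146 different genes, of which 138 could be tested. These lists were drawn up with earlier results of these data known. In all, 22 of the 138 rose and 29 fell, 37.0% together, with a median log2 fold change of -0.016 (all genes: 26.2% called, median -0.0042). These shares were not matched for read depth. When genes averaging fewer than 50 counts were dropped, 51 of 128 listed genes were called, against 3750 of 11347 in all. The listed share then lay closer to that of all genes, and the part of depth in the rest was not tested. Within the lists genes moved in both directions, and in no list did all the called genes share a direction.

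Partners of PINK1 in the disposal of mitochondria moved in both directions. Of 29 tested genes, 6 rose and 5 fell (median log2 fold change 0.016). Of 5 autophagy adaptors in the list, 3 rose and 2 did not pass. OPTN went from 22.9 ± 0.179 to 39.6 ± 3.96 CPM (log2 fold change 0.79), SQSTM1 from 83.8 ± 9.73 to 126.6 ± 5.00 CPM (0.60), and TAX1BP1 from 123 ± 4.29 to 179 ± 26.5 CPM (0.54; SD, n = 2 each), while CALCOCO2 and NBR1 had -0.33 and 0.11. TBK1, a kinase that acts on such adaptors, rose from 41.3 ± 0.209 to 63.2 ± 1.93 CPM (0.61). Those that fell included CHCHD2, a mitochondrial protein itself linked to Parkinson disease, from 66.0 ± 2.12 to 39.6 ± 1.61 CPM (-0.73), TOMM7, a small subunit of the import pore on which PINK1 collects (-0.67), and the mitophagy receptor BNIP3 (-0.55). In edgeR's test the adjusted p (Benjamini-Hochberg) was 7.3e-04 for OPTN and 2.2e-04 for CHCHD2. With the guanine-minus-cytosine offsets OPTN, SQSTM1, TAX1BP1 and TBK1 stayed called, at smaller log2 fold changes of 0.41, 0.54, 0.27 and 0.34. CHCHD2, TOMM7 and BNIP3 also stayed called in that fit, at -0.50, -0.87 and -0.48. For TOMM7 the Wald test of DESeq2 gave an adjusted p of 0.132 (Benjamini-Hochberg). SQSTM1, TAX1BP1, CALCOCO2, NBR1, TBK1, TOMM7 and BNIP3 were named after their values were seen.

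Retromer and sorting genes were mostly not called: of 22 tested, 2 rose and 3 fell, 22.7% (median 0.0038). VPS26B, an alternative retromer subunit, fell from 75.4 ± 1.78 to 52.5 ± 2.34 CPM (log2 fold change -0.52). VPS26A and VPS29, the subunits that complete the VPS35 trimer, had log2 fold changes of 0.24 and -0.13 and did not pass. SORT1, a sorting receptor carried by the retromer, fell from 147.3 ± 0.0557 to 97.8 ± 2.77 CPM (-0.59). The adjusted p-values in edgeR's test (Benjamini-Hochberg) were 0.0027 for VPS26B and 2.7e-04 for SORT1.

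Of 18 tested genes around LRRK2, 2 rose and 3 fell (median 0.094). Among its Rab substrates RAB12 rose from 27.8 ± 0.550 to 43.6 ± 3.97 CPM (log2 fold change 0.65) and RAB3A, a Rab of synaptic vesicles, fell from 8.99 ± 1.59 to 4.65 ± 1.44 CPM (-0.94). RAB8A and RAB10 did not pass, at -0.30 and -0.039. The paralog LRRK1 did not pass either, at -0.23, with 205, 209, 203 and 255 counts in control a, control b, SNP a and SNP b. RAB3A lost its call in 6 of 14 alternatives, and its log2 fold change was -0.29 with the offsets that include guanine minus cytosine; RAB12 lost its call with those offsets alone.

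Genes of the lysosome and the relatives of ATP13A2 moved mostly downward among those called, with 6 of 19 lower and 2 higher (median -0.10, 42.1% called). Of those called, only CTSB and ATP6V0A1 also passed with the guanine-minus-cytosine offsets, at -0.36 and -0.31 on the log2 scale. In that fit 18.7% of all genes passed. CTSD, PSAP and ATP6AP2 were among those that lost their call, so the share called depends on these offsets. ATP13A1, the paralog in the endoplasmic reticulum, fell by 0.46 on the log2 scale (-0.17 and not called with the guanine-minus-cytosine offsets), whereas ATP13A3, the paralog of endosomes, had 0.22 and did not pass. SMPD1, the acid sphingomyelinase, fell from 10.5 ± 2.10 to 5.57 ± 1.11 CPM (-0.93), and TMEM175, a potassium channel of the lysosome, from 13.3 ± 2.76 to 7.74 ± 0.98 CPM (-0.79). In edgeR's test the adjusted p (Benjamini-Hochberg) was 0.0175 for SMPD1 and 0.0215 for TMEM175. Neither passed with the Wald test of DESeq2, with the guanine-minus-cytosine offsets, without SNP a or without control a.

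In the ubiquitin list, 2 of 16 tested genes rose and 5 fell (median -0.032). UBB, a ubiquitin precursor, fell from 149.9 ± 17.5 to 83.8 ± 8.18 CPM (log2 fold change -0.84), and UBA1, the main ubiquitin-activating enzyme, from 242 ± 1.30 to 168 ± 21.6 CPM (-0.52). FBXO2, an F-box protein like FBXO7, rose by 2.17 on the log2 scale from very few reads, with 3 and 2 in control and 15 in each SNP library. UCHL5, a relative of UCHL1 at the proteasome, rose by 0.39 on the log2 scale, but was at -0.19 with the guanine-minus-cytosine offsets, and UCHL3 did not pass, at -0.014. PSMF1, the proteasome regulator that binds FBXO7, fell by 0.33 on the log2 scale, but was at -0.10 with those offsets, where it did not pass, as FBXO2 did not at 1.63. By edgeR the adjusted p (Benjamini-Hochberg) was 2.4e-05 for UBB and 8.7e-04 for UBA1.

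Of 9 tested genes that bind synuclein or take part in vesicle endocytosis, 1 rose and 2 fell (median 0.19). PLK3, a kinase of the polo family, rose from 10.1 ± 1.35 to 19.9 ± 4.66 CPM (log2 fold change 0.99). SIAH2, a ubiquitin ligase, fell from 20.4 ± 4.01 to 13.3 ± 0.0080 CPM (-0.61), and lost its call in 7 of 15 alternatives. Among 18 other genes tied to inherited parkinsonism, 5 rose and 2 fell (median 0.25). The largest rise there was in TAF1, a subunit of the general transcription factor TFIID, from 219.5 ± 5.13 to 360.5 ± 0.685 CPM (0.72). The adjusted p-values in edgeR's test (Benjamini-Hochberg) were 0.0022 for PLK3, 0.0286 for SIAH2 and 1.2e-05 for TAF1.

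Of 13 tested redox genes around DJ-1, 3 rose and 4 fell (median -0.13). The share called, 53.8%, was the highest of the 8 lists, against 26.2% of all genes tested. The list is short and was drawn up with earlier results of these data known. Over all lists, 36 of 138 genes were called with the guanine-minus-cytosine offsets, against 51 in the main fit. TXNRD1, the cytosolic thioredoxin reductase, rose from 125.4 ± 2.19 to 241 ± 18.0 CPM (log2 fold change 0.94), and PRDX3, the mitochondrial peroxiredoxin, fell from 50.3 ± 7.92 to 31.4 ± 3.14 CPM (-0.68). NFE2L2, the gene for the transcription factor NRF2, fell by 0.46 on the log2 scale (DESeq2's Wald test, adjusted p 0.0576), and its inhibitor KEAP1 did not pass, at -0.021. By edgeR the adjusted p (Benjamini-Hochberg) was 1.4e-06 for TXNRD1, 0.0020 for PRDX3 and 0.0142 for NFE2L2.

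**Figure D4:**
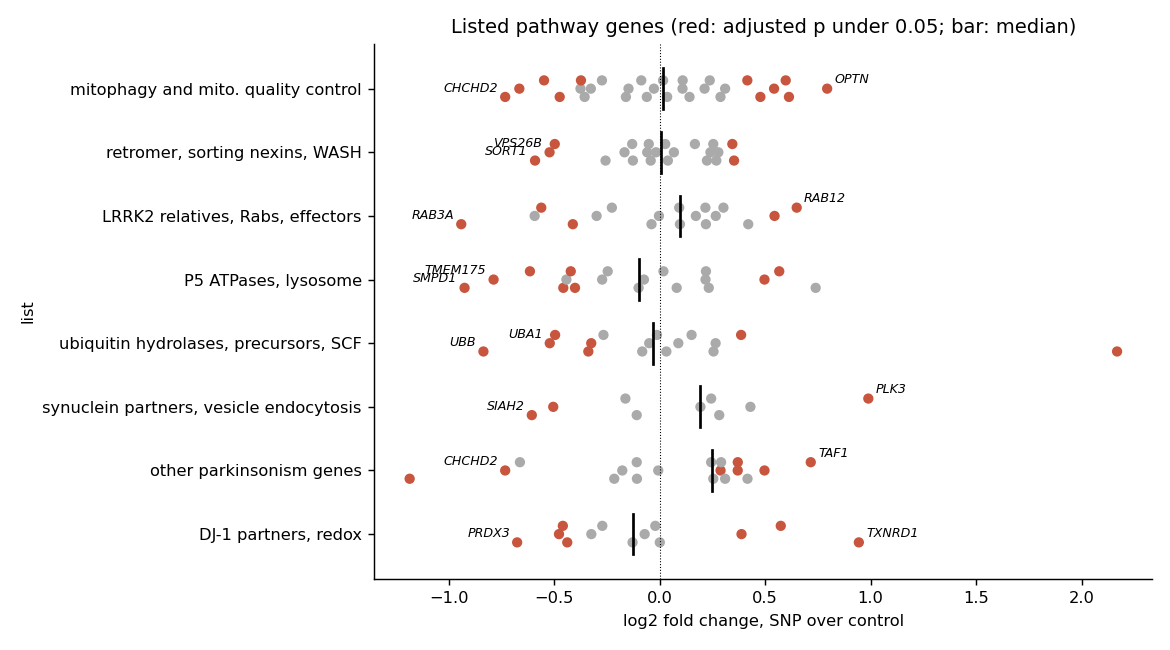
Log2 fold change of SNP over control for the tested genes of the 8 lists (1 point per gene, red where the adjusted p of edgeR's test was under 0.05, black bars for list medians); labels mark the 2 genes of largest change per list among those called with at least 5 CPM, so the outermost points of 2 lists, FBXO2 and RAB32, have no label. Red points lie on both sides of 0 in every list, and the medians lie between -0.13 and 0.25.

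Likeness was measured as the distance between log2 CPM over the 4 libraries, each gene centred on its mean, among 8427 genes with at least 20 CPM. The genes nearest to ATP13A2 were CARM1, which encodes an arginine methyltransferase, and CACNB3, a calcium channel subunit, with distances of 0.035 and 0.048. CARM1 had 64.3 and 64.4 CPM in control and 33.0 and 37.9 CPM in SNP libraries. NUB1 and NHLRC3 were nearest to PARK7, at 0.035 and 0.043, and UTP14A and MPHOSPH10, both of ribosome assembly, were nearest to LRRK2, at 0.054 and 0.087. With 4 libraries such a distance mainly reflects the difference between the groups.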

How the data were processed

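RNA of 4 SH-SY5Y libraries (labelled 75 bp reads, 40 M reads each) was tabulated per gene, with the build GRCh38 per the submitters' processing notes; aligner and counter are not given in the sources used here. The deposited counts are whole reads per gene without normalization. The TPM values deposited by the authors are per transcript length. The RPKM values deposited by the authors imply between 48.7 and 62.0 M reads, more than the labelled 40 M. The counts come to between 11.5% and 13.3% of these implied reads. Gene models came from GENCODE 29, which held 57980 of 58243 identifiers, and upstream sequence from RefSeq (7 of the 8 genes matched).

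Counts were tested with edgeR 4.0.16 (R 4.3.3): filterByExpr (minimum count 10, total 15), TMM, quasi-likelihood test on all 4 libraries without covariates, Benjamini-Hochberg threshold 0.05. CPM are TMM-scaled. Standard errors come from the log2 fold change and F. Guanine minus cytosine was taken over all transcripts of a gene. Offsets were per-library lowess curves (span 0.5, 3 cycles). Other alternatives were no filter, a mean of 50 counts, other scalings (DESeq2 1.42.0 size factors, total counts, RPKM totals), DESeq2's Wald test, limma-voom (limma 3.58.1), the replicate letter as a block, a threshold of 0.01, genes without exonic overlap, and each library left out. Scripts were tested on simulated counts.

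Members and lists were chosen with earlier results of these data known. Named are all 8 members, the 2 genes per list with the largest change among those past the threshold with at least 5 CPM, and the 2 genes nearest each member that passed. Other genes, such as list members that did not pass and chromosomal neighbours, were named after their values were seen. GATD3A of the lists was not matched by name.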

Additional observations from a re-analysis of the deposited data

How the results depend on the processing

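The count of all genes called, 3861, became 2415 with DESeq2's Wald test, 2018 among 7241 genes without exonic overlap and 2224 at a threshold of 0.01, and lay between 2447 and 4144 when 1 library was left out (2482 and 2447 without control a and control b). With the RPKM read totals the calls were 2085 higher and 1218 lower, against 2002 and 1859. With the guanine-minus-cytosine offsets 2763 genes were called, of which 1985 were among the 3861, or 51.4% of these. Of the 138 listed genes tested, 36 were called with those offsets and 37 with DESeq2's Wald test. The count of members called, 3, became 1 (ATP13A2) with DESeq2's Wald test, with the offsets on length, GC and guanine minus cytosine, and at a threshold of 0.01, and lay between 1 and 2 when 1 library was left out. The count of listed genes called, 51, became 23 without exonic overlap, where 63 were tested, and 27 at a threshold of 0.01, and lay between 28 and 55 when 1 library was left out (28 without control b). PARK7 was -0.0097 with the guanine-minus-cytosine offsets. VPS35, not called in any fit, was -0.074 with length and GC offsets, -0.075 with these and the replicate block, -0.057 with the guanine-minus-cytosine offsets and between -0.075 and 0.16 when 1 library was left out; UCHL1 lay between -0.047 and 0.071 there. The causes were not tested.

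With a replicate block on the letters 4487 genes, 4 members and 61 listed genes were called; PINK1 was the member gained, at 0.47 with an adjusted p of 0.0486 in edgeR's test. Nothing in the labels ties equal letters to a shared day or batch, and libraries of equal letter deviated from their group means with a correlation of 0.0502 across genes. PINK1 passed in 5 of 15 alternatives and LRRK2 in 7 of 15. LRRK2 and SNCB are limited by depth, with 112 and 20 reads over all libraries, and 3 reads correspond to between 0.372 and 0.534 CPM.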

Other observations

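The nearest tested genes on either side of each of the 8 genes on its chromosome were compared between SNP and control libraries, a look added after the data were seen. Of these 16 neighbours, 2 rose and 3 fell in edgeR's test (Benjamini-Hochberg), against 26.2% called among all genes. Both neighbours of ATP13A2 fell. MFAP2, which encodes a microfibril protein and lies 5123 bases away, had 24.2 and 20.9 CPM in control and 10.3 and 14.5 CPM in SNP libraries (log2 fold change -0.87, SE 0.204). SDHB, a subunit of succinate dehydrogenase that lies 6794 bases away on the other side, had 27.8 and 24.5 CPM in control and 14.7 and 10.4 CPM in SNP libraries (-1.06, SE 0.198). By edgeR the adjusted p (Benjamini-Hochberg) was 0.0034 for MFAP2 and 4.9e-04 for SDHB.

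MUC19, a mucin gene that lies 24110 bases past the end of LRRK2 on the same strand, had 2.47 and 1.07 CPM in control and 6.92 and 10.8 CPM in SNP libraries, a log2 fold change of 2.28 (SE 0.401). RTCB, the tRNA ligase gene that lies 62421 bases before FBXO7, rose by 0.66 on the log2 scale, and APBB2, 39699 bases before UCHL1, fell by 0.56 on that scale. Among these neighbours, which leave out genes that overlap a member, such as PINK1-AS, the 2 closest did not pass. ORC6, 125 bases from VPS35 on the opposite strand, had a log2 fold change of 0.15. DDOST, 256 bases from PINK1 on the opposite strand, had -0.18. Neither neighbour of PARK7 or SNCB passed.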
